A study of Mus musculus with 2 samples.

Results

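Cyclin-dependent kinase inhibitors were examined as a family of 7 genes, Cdkn1a, Cdkn1b, Cdkn1c, Cdkn2a, Cdkn2b, Cdkn2c and Cdkn2d, out of the 32285 genes in each count matrix. The 7 were taken by name and not by a threshold on their values. Each was followed through muscle stem cells (MuSCs), cycling cells, differentiating cells and muscle fibre droplets, and was set beside Myog and Mki67 in single cells. Plantaris MuSCs were profiled by single-cell RNA sequencing in 1 library after sham surgery and 1 library 5 days after mechanical overload (MOV), the growth stimulus, in which synergist muscles are partly removed so that the plantaris carries their load. The animals of both groups were 26 weeks old and carried the alleles Pax7rtTA and TRE-H2B-GFP, and both groups drank doxycycline at 2.0 mg/mL over 2 weeks, in water with sucrose at 2% by the labels and at a higher share by the methods of the study. In this strain a drug-dependent activator made from the Pax7 locus switches on a green histone, so the reporter marks cells with an active Pax7 gene at the time of dosing, and the alleles and the drug are common to both libraries. The methods describe a sort of cells with VCAM and without CD31, CD45 and SCA1, which is meant to leave out endothelial, immune and fibro-adipogenic cells, whereas the design text of the series names the GFP signal. The labels name a single mouse where the methods name several per group, so the number of animals behind a library cannot be told. With 1 library per condition there is no replicate check, and no p-value is given. Intervals are exact 95% intervals that cover counting error only.

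The family has a pair of branches. The CIP/KIP proteins p21 (Cdkn1a), p27 (Cdkn1b) and p57 (Cdkn1c) bind cyclin and kinase together and act on the kinases of G1 and of S phase, whereas the INK4 proteins p16 (Cdkn2a), p15 (Cdkn2b), p18 (Cdkn2c) and p19 (Cdkn2d) bind the kinases Cdk4 and Cdk6 and keep them from the D cyclins. Held inactive, these kinases leave the retinoblastoma proteins unphosphorylated and the E2F genes off. In skeletal muscle, p21 and p57 are known for the lasting cell cycle exit of differentiating myocytes, p27 for the slow-cycling state of stem cells, and the Cdkn2a locus, which also encodes the p53 activator p19Arf, for senescence.

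Promoter sequence of GRCm38.p6 in the RefSeq table was matched for 6 of the 7 genes, with 9 windows of the 250 bases before a start. A pair are printed because each holds a motif of a factor named above, in capitals, on the strand of the gene and with bases that lie in an annotated exon left off.
Cdkn1a, chr17:29090729-29090975, plus strand, with a pair of p53 core half-sites (CATG, any 6 bases, CATG): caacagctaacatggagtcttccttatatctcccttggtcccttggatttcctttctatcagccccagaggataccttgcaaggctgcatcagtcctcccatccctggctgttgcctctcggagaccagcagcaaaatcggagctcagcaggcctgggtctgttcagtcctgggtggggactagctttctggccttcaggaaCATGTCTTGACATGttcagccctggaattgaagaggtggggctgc
Cdkn2a, chr4:89294654-89294869, minus strand, the start furthest upstream, with an E2F motif (TTTCCCGC): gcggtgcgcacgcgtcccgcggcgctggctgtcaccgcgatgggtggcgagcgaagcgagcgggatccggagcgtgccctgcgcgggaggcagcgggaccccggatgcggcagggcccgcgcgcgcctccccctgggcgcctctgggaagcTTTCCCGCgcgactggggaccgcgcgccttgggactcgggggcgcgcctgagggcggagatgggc
Each motif was searched on both strands. The p53 pair was in 161 of 32851 mouse promoter windows (0.490%) and in 1 of the 9 windows of the family, that of Cdkn1a, and TTTCCCGC was in 294 (0.895%) and in 1 of the 9. The E2F motifs TTTGGCGC and TTCCCGCC and the E-box CAGCTG, a form that MyoD and myogenin bind, had no match in the 9 windows. The E-box CACCTG had 1, in the second Cdkn1a window. Among the 32851 mouse windows, TTTGGCGC was in 137 (0.417%), TTCCCGCC in 610 (1.86%), CAGCTG in 4271 (13.0%) and CACCTG in 5657 (17.2%). With only 9 windows in the family, no lack of these motifs is read from the counts. A match is a description of these letters and not a bound site.

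The sham library held 1100 barcodes with 7302661 unique molecular identifiers (UMIs, 1 per captured transcript) and a median of 4116.5 per barcode, and the MOV library 3854 barcodes with 88498487 UMIs and a median of 16836. Barcodes with under 10% mitochondrial UMIs were kept, 738 in sham and 3060 in MOV. They were grouped by marker UMIs, in which no inhibitor took part. Pax7 cells had Pax7 and few differentiation or cycling UMIs (67 in sham, 526 in MOV), cycling cells at least 5 UMIs of Mki67, Top2a, Cdk1, Ccna2 and Rrm2 together (9 and 738), Myog cells at least 5 UMIs of myogenin (0 and 97), Myog and cycling cells both (2 and 102), late myocytes at least 5 UMIs of the embryonic and perinatal myosins Myh3 and Myh8 (0 and 46), and fibre droplets adult myosin at 0.1% or more of their UMIs (426 and 41). The labelled cell type, MuSC, thus fitted a minority of sham barcodes, since 57.7% of those kept were fibre droplets and 9.08% were Pax7 cells. Markers of other lineages (fibro-adipogenic, endothelial, immune, Schwann, pericyte and tendon cells, 9 genes) summed to between 6.89 and 12.1 CPM (counts per 1000000 UMIs of the group) in the myogenic groups of MOV, and their part in the levels was not tested. Cells of such lineages were among the barcodes kept in spite of the sort, with 363 Pdgfra cells in MOV and 25 in sham.

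The libraries shared 44 barcodes. The deeper copy was in sham for 39 and in MOV for 5, and it held a median of 47.4 times the UMIs of the other. They made up 7 of the 9 sham cycling cells, 1 of the 2 sham Myog and cycling cells, 20 of the 426 sham and 10 of the 41 MOV fibre droplets, 2 of the 67 sham and 1 of the 526 MOV Pax7 cells, 2 of the MOV cycling and 2 of the MOV Myog and cycling cells, and none of the MOV Myog cells or late myocytes. Results that rest on these groups are given with and without the shared barcodes where the value or call moved. Groups of fewer than 20 cells enter no ratio, which leaves sham with Pax7 cells and fibre droplets.

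**Figure D1:**
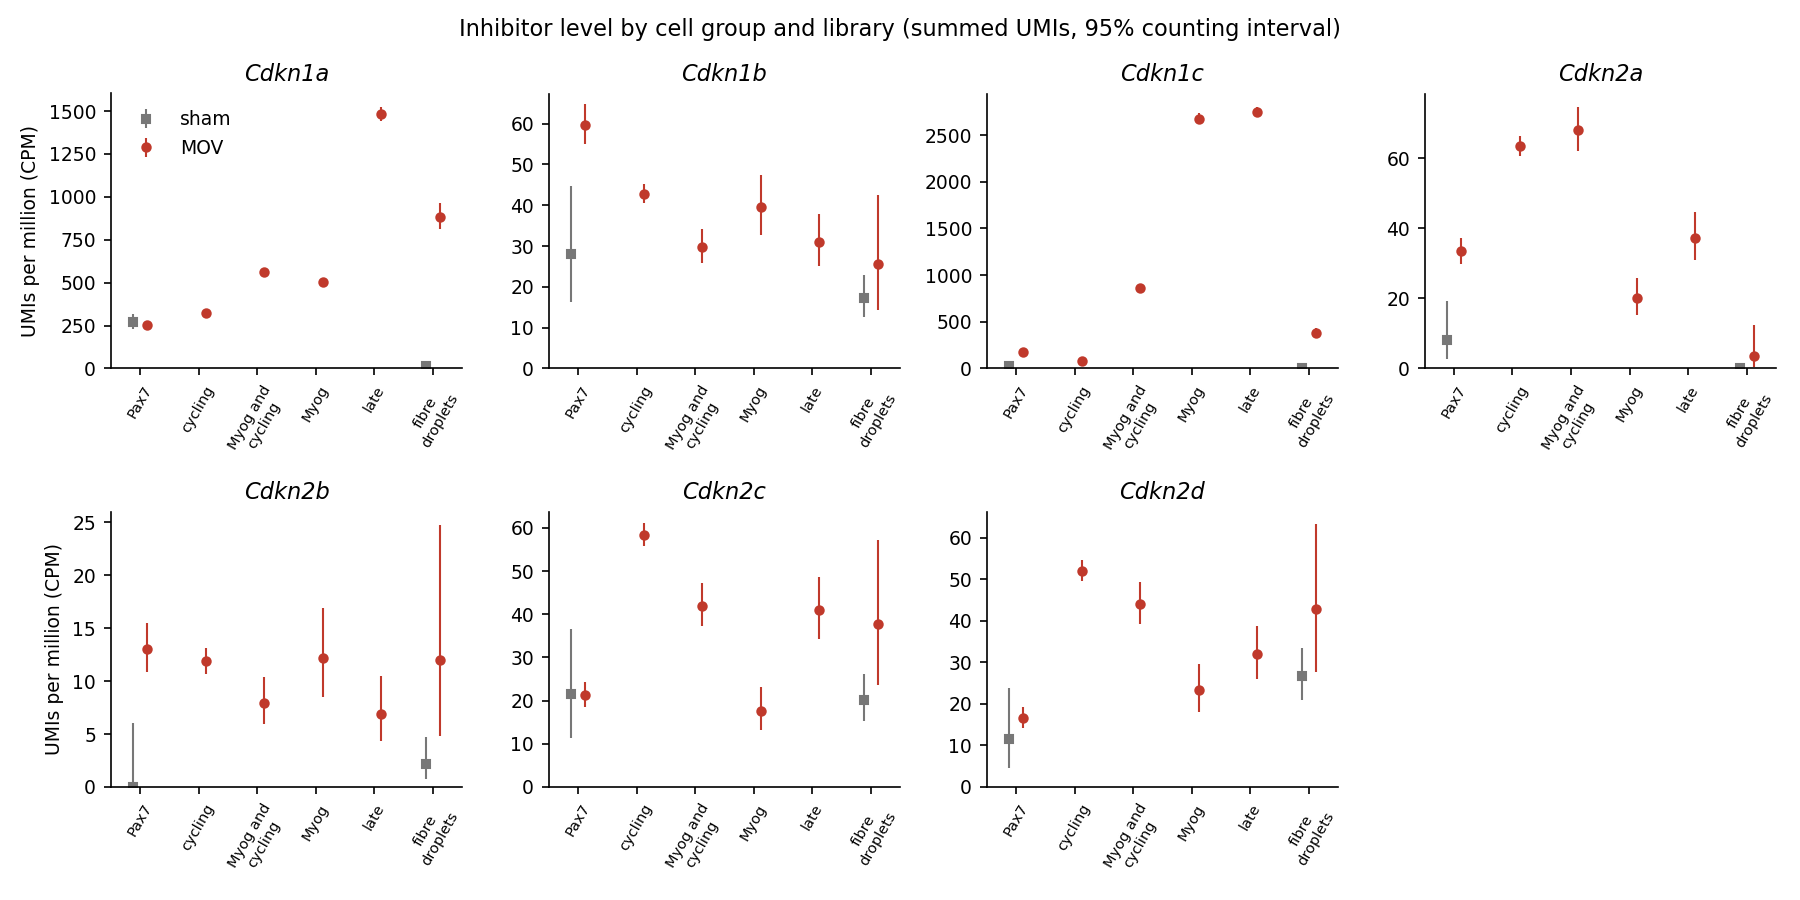
Level of each of the 7 inhibitors, in CPM on a linear axis, in each group of at least 20 cells of the sham and MOV libraries, with exact 95% counting intervals. Cdkn1c rose from 176 CPM in MOV Pax7 cells to 2676 CPM in Myog cells, Cdkn1a was highest in late myocytes at 1483 CPM, and Cdkn2c and Cdkn2d were higher in cycling than in Pax7 cells.

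The comparison of Myog cells with Pax7 cells of the MOV library asks which inhibitors accompany commitment to differentiation. Cdkn1c, an inhibitor that arrests embryonic and adult muscle precursors, was 15.2-fold higher in Myog cells, with 7909 UMIs in 97 cells (2676 CPM, 2618 to 2736) against 1730 UMIs in 526 Pax7 cells (176 CPM, 167 to 184), a log2 ratio of 3.93 (3.86 to 4.01). Cdkn1a, the p53 target p21, stood at 502 CPM (476 to 528) against 250 CPM (241 to 260), a log2 ratio of 1.00 (0.91 to 1.10) that lay at the 2-fold limit and fell to 0.99 without the mitochondrial limit. These were 2 of 7 members past 2-fold, by which is meant a ratio of at least 2 with its interval on that side of no change and at least 20 UMIs in the pair, beside 13.5% of the 11108 genes tested, 4.83% higher and 8.66% lower.

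The other 5 inhibitors were under 2-fold. Cdkn1b, the p27 of resting cells, had 39.6 CPM in Myog cells against 59.8 CPM in Pax7 cells, a log2 ratio of -0.59 (-0.89 to -0.31). Cdkn2a had 19.97 against 33.4 CPM (-0.74, -1.17 to -0.34). Cdkn2d had 23.4 against 16.5 CPM (0.50, 0.07 to 0.91), but with groups set on thinned counts its log2 ratio was -0.71 (-1.10 to -0.33), so that its direction was not settled, while for Cdkn2b (-0.09) and Cdkn2c (-0.27) the interval held no change. The median log2 ratio of the 7 was -0.08 and that of all genes tested -0.07, so the family did not move as a group and the difference lay with Cdkn1c and, at the limit, Cdkn1a.

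**Figure D2:**
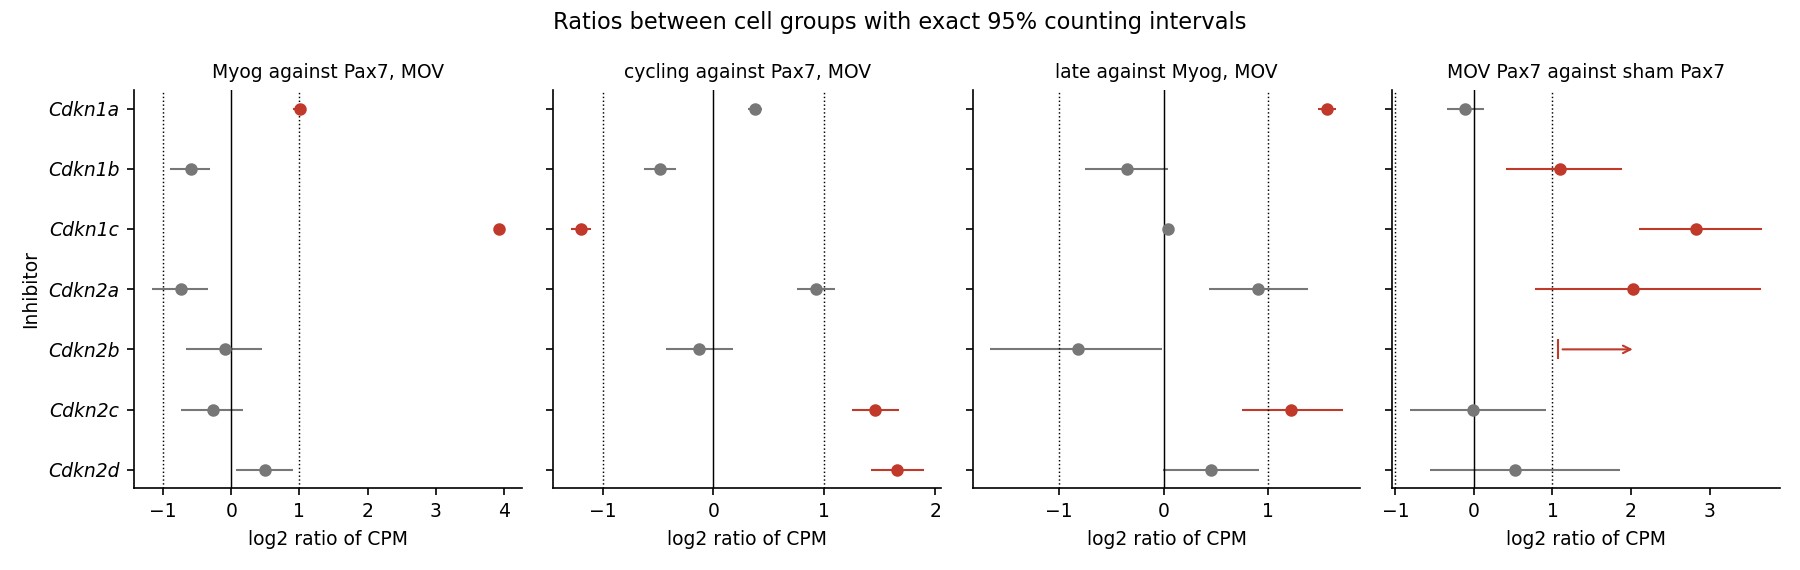
Log2 ratio of each inhibitor with its exact 95% interval in 4 comparisons, namely Myog cells against Pax7 cells, cycling cells against Pax7 cells and late myocytes against Myog cells, all of MOV, and Pax7 cells of MOV against those of sham. Red marks members past 2-fold, and the arrow of Cdkn2b a lower bound; Cdkn1c is at 3.93 in the first, -1.19 in the second, 0.04 in the third and 2.83 in the fourth.

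Cells within the Myog group differed widely in Cdkn1c. Among the 91 Myog cells of at least 5000 UMIs the level ran from 0 through a lower quartile of 46.9 CPM, a median of 1178 CPM and an upper quartile of 5084 CPM to 15348 CPM, and 12 cells held 50% of the UMIs. In Pax7 cells the median was 0, and 8 cells held 50% of the UMIs. Cdkn1a was more even, with medians of 119 CPM in Pax7 cells, 232 CPM in cycling cells, 445 CPM in Myog and cycling cells, 320 CPM in Myog cells and 1088 CPM in late myocytes. One Pax7 cell of 72769 UMIs, with 3 Pax7 UMIs and no Myog UMI, carried 404 of the 1730 Cdkn1c UMIs of its group (23.4%), and without it the Pax7 level was 136 CPM.

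**Figure D3:**
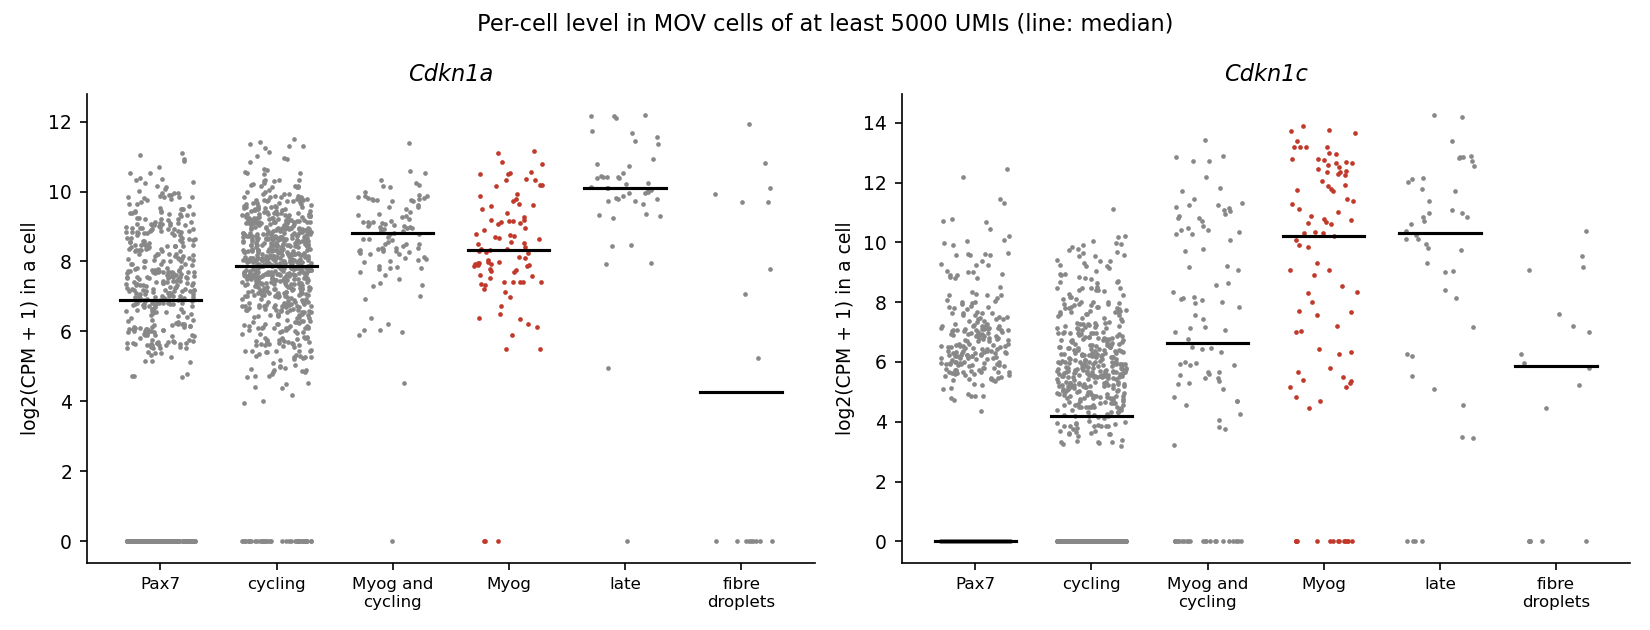
Cdkn1a and Cdkn1c in single MOV cells of at least 5000 UMIs, as log2(CPM + 1), by group, with the group median as a line. Cdkn1c spans from 0 to the highest values within the Myog, Myog and cycling, and late groups, whereas Cdkn1a shifts upward with fewer cells at 0.

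Shares of cells were compared after each cell was thinned to 5000 UMIs, since the groups differed in depth, with medians of 16537.5 UMIs in Pax7, 34292.5 in cycling, 61512 in Myog and cycling, 28487 in Myog cells and 63779.5 in late myocytes of MOV. Cells under that depth were left out, which took 11, 5, 0, 6 and 0 cells of these groups. Cdkn1c was then found in 21.2% of Pax7 cells (17.7 to 24.95), 18.8% of cycling cells (16.1 to 21.8), 46.1% of Myog and cycling cells (36.2 to 56.2), 70.3% of Myog cells (59.8 to 79.5) and 76.1% of late myocytes (61.2 to 87.4). Unthinned, the same shares were 41.4%, 54.5%, 77.5%, 84.5% and 91.3%. No cell type here can be taken to lack these genes, so no group measures free RNA. The lowest share among the groups of the MOV library was 14.1% (10.7 to 18.2), in fibro-adipogenic Pdgfra cells of median 37546 UMIs. In sham, 45.5% of Pdgfra cells (24.4 to 67.8) held Cdkn1c, so the share in MOV Pdgfra cells is not taken as a level of free RNA. The Pax7 and cycling intervals overlapped that of the MOV Pdgfra cells, and the shares in the 3 groups with Myog or late myosin were well above it.

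Ordered by Myog UMIs in the 1487 thinned myogenic MOV cells, Cdkn1c rose with Myog. Cells with no Myog UMI (1212) had 0.470 Cdkn1c UMIs per cell, those with 1 (94 cells) 2.12, those with 2 to 4 (64 cells) 4.63, those with 5 to 9 (48 cells) 12.5 and those with 10 or more (69 cells) 18.5, and each interval lay above the one before. The share of cells with Cdkn1c went from 20.05% and 24.5% in the lowest bins, whose intervals overlapped, to 54.7%, 79.2% and 78.3%. Median Cdkn1c UMIs per cell were 0, 0, 1, 10 and 10, so the last rise was in the mean and not in the median or the share. Cdkn1a stayed at 1.61 and 1.57 UMIs per cell with 0 and 1 Myog UMI and then stood at 2.31, 3.40 and 6.00. Cdkn1b and Cdkn2a were the reverse at the end of the scale, found in 7.25% (2.39 to 16.1) and 4.35% (0.906 to 12.2) of cells with 10 or more Myog UMIs and in 21.0% (18.8 to 23.4) and 19.1% (16.9 to 21.4) of cells with none. A single Myog UMI can be free RNA, as 3.88% of Pdgfra cells held Myog at this depth, and the median depth before thinning was 26280 UMIs in the lowest bin and 45414 in the highest.

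**Figure D4:**
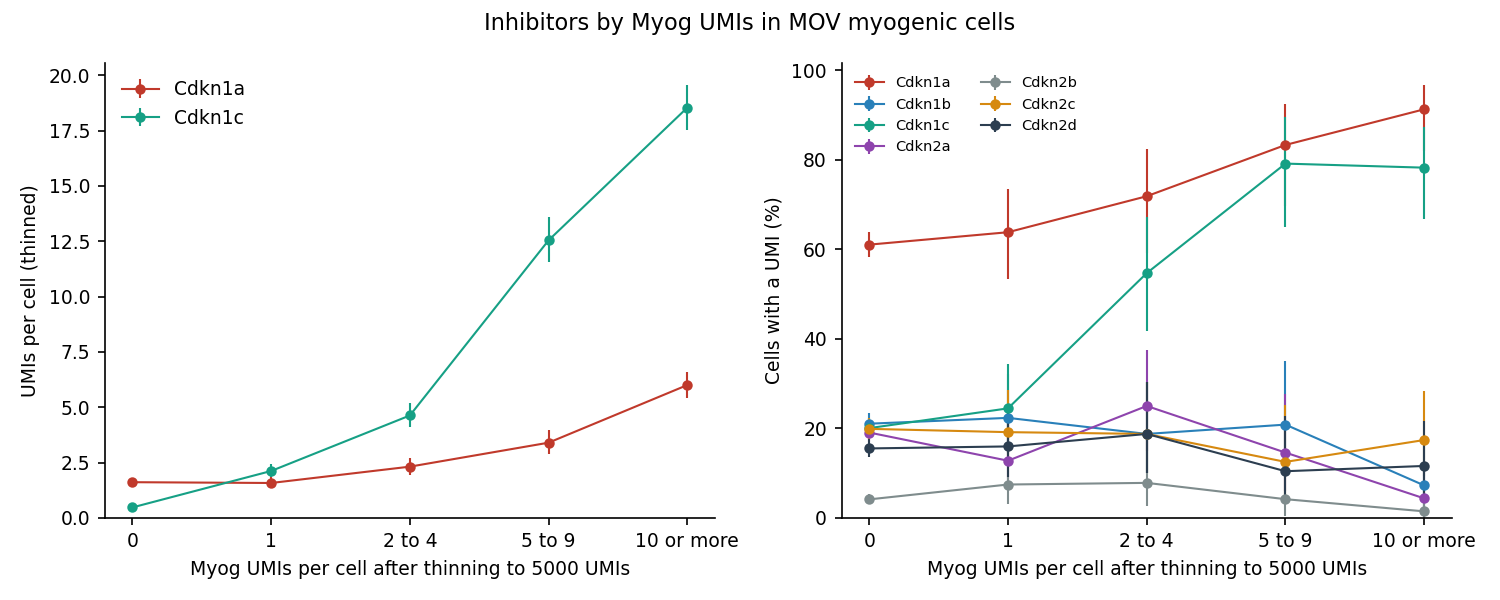
Left, UMIs per cell of Cdkn1a and Cdkn1c against Myog UMIs in MOV myogenic cells thinned to 5000 UMIs, with exact 95% intervals; right, the percent of cells with each of the 7 inhibitors in the same bins. Cdkn1c climbs from 0.470 to 18.5 UMIs per cell and Cdkn1a from 1.61 to 6.00, and none of the other 5 climbs in this way.

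Within the 275 cells with a Myog UMI, Cdkn1c followed the fusion genes. Cells with Mymk, the fusogen myomaker (117 cells), had 16.5 Cdkn1c UMIs per cell (15.7 to 17.2), and 75.2% held at least 1, against 2.84 (2.58 to 3.12) and 39.2% in the 158 cells without it. With Mymx, the partner fusogen myomixer, the values were 13.8 against 6.65, and with Myh3 13.6 against 7.72. Cells that still had Pax7 (56) carried 4.00 Cdkn1c UMIs per cell against 9.83 in those without (219). Cdkn1a showed the same order, with 4.79 against 1.98 UMIs per cell for Mymk and 2.00 against 3.47 for Pax7. The intervals of these pairs did not overlap, but a few cells with many UMIs weigh in each mean, and the medians of Cdkn1c were 9 with and 0 without Mymk. For Myod1, Cdkn1c UMIs per cell went the other way, at 7.70 with it (7.26 to 8.15) and 9.80 without (9.26 to 10.4). The shares of cells with Cdkn1c were 60.5% and 47.2%, with overlapping intervals, and the medians were 2 and 0. Only the mean of Cdkn1c was thus lower with Myod1. Cdkn1a had 3.58 with Myod1 and 2.67 without. For the cyclin gene Ccnd3, Cdkn1c had 9.60 and 7.36, with overlapping shares of 57.3% and 50.8%.

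Read in the other direction, few cells high in Cdkn1c lacked Myog. Of 2649 thinned MOV cells of all groups, 142 had at least 5 Cdkn1c UMIs and 102 of these (71.8%) had Myog, 83 had at least 10 and 75 (90.4%) had Myog, and 47 had at least 20 and 45 (95.7%) had Myog. The 47 comprised 28 Myog cells, 11 late myocytes, 6 Myog and cycling cells, 1 Pax7 cell and 1 unassigned cell.

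Late myocytes were compared with Myog cells to see how the inhibitors stood once embryonic myosin was made. Cdkn1a was 2.96-fold higher, at 1483 CPM (1441 to 1526) against 502 CPM, a log2 ratio of 1.56 (1.48 to 1.65). Cdkn2c, the p18 inhibitor of Cdk4 and Cdk6, had 41.0 CPM (131 UMIs) against 17.6 CPM (52 UMIs), a log2 ratio of 1.22 (0.75 to 1.71). Cdkn1c, the member with the largest ratio in the earlier step, was level here at 2749 against 2676 CPM (0.04, -0.01 to 0.08). These were 2 of 7 past 2-fold beside 14.3% of 9751 genes. Cdkn2a (0.90, 0.44 to 1.38) came close, and Cdkn2d (0.45), Cdkn1b (-0.35) and Cdkn2b (-0.82) were under the limit.

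Single cells weighed on these sums, since 1 late myocyte held 1500 of the 8775 Cdkn1c UMIs (17.1%) and another 719 of the 4736 Cdkn1a UMIs (15.2%) and 32 of the 119 Cdkn2a UMIs (26.9%). Without those cells Cdkn1a was at 1322 CPM, Cdkn1c at 2334 CPM and Cdkn2a at 28.6 CPM. Myog cells were by definition under 5 UMIs of the cycling genes and late myocytes were not held to that limit. Of the 46 late myocytes, 27 had at least 5 such UMIs, and they were deeper, with a median of 81301 UMIs against 44571 in the other 19. The 27 had 1548 CPM of Cdkn1a, 1715 CPM of Cdkn1c, 48.1 CPM of Cdkn2a and 40.0 CPM of Cdkn2c. The 19 had 1334, 5127, 12.4 and 43.4 CPM. Cdkn1a was above its level in Myog cells in both kinds of late myocyte, whereas Cdkn1c was above it in the 19 and below it in the 27.

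Cycling cells carried more of the INK4 genes Cdkn2c and Cdkn2d than Pax7 cells. Cdkn2d, the p19 protein that binds Cdk4 and Cdk6, was 3.15-fold higher in cycling cells, with 52.0 against 16.5 CPM and a log2 ratio of 1.65 (1.42 to 1.90). Cdkn2c was 2.75-fold higher, with 58.4 against 21.2 CPM and 1.46 (1.25 to 1.68). Cdkn1c was lower, with 76.7 against 176 CPM and -1.19 (-1.28 to -1.10), but without the Pax7 cell that held 404 UMIs the log2 ratio was -0.82 (-0.92 to -0.72) and under 2-fold, and the thinned shares of 18.8% and 21.2% overlapped. These were 3 of 7 past 2-fold beside 14.7% of 12936 genes, 8.93% higher and 5.77% lower.

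Cdkn2a was just under the limit, at 63.3 against 33.4 CPM (0.92, 0.75 to 1.10), and passed it under 3 of 14 alternatives, among them edgeR's TMM factors (1.00). Its 3′ tags cannot separate the p16Ink4a and p19Arf transcripts, which share their last exons. Cdkn1a (0.37, 0.31 to 0.44), Cdkn1b (-0.48, -0.63 to -0.34) and Cdkn2b (-0.13, -0.43 to 0.17) were under 2-fold. The thinned shares moved like the levels, with Cdkn2c in 27.4% of cycling cells (24.2 to 30.8) and 8.35% of Pax7 cells (6.11 to 11.1), Cdkn2d in 21.1% and 7.96%, and Cdkn2a in 23.9% and 10.7%. For Cdkn2c and Cdkn2d, cycling cells stood above or near the Pdgfra cells, at 10.2% and 19.9%, so the Cdkn2d share differed little from that of a non-myogenic group, 24.4% of whose cells held Mki67.

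Within cycling cells, those leaning to G2/M (411) were set against those leaning to S (327). None of the 7 inhibitors was past 2-fold, beside 3.96% of 12482 genes. Cdkn2d had a log2 ratio of 0.60 (0.44 to 0.76), Cdkn2c of 0.54 (0.39 to 0.69) and Cdkn1a of 0.26 (0.20 to 0.32), each with an interval above 0. For Cdkn1b (0.04) and Cdkn1c (-0.06) the interval held no change.

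Cells with both Myog and cycling transcripts show whether the pattern of each state was kept. Against cycling cells, Cdkn1c alone of the 7 was past 2-fold, 11.3-fold higher at 867 CPM (845 to 890) against 76.7 CPM, a log2 ratio of 3.50 (3.43 to 3.57), beside 8.99% of 12776 genes. Against Myog cells, Cdkn1c was lower (-1.63, -1.68 to -1.58), whereas Cdkn2a, at 68.1 against 19.97 CPM (1.77, 1.38 to 2.19), and Cdkn2c, at 42.0 against 17.6 CPM (1.26, 0.82 to 1.71), were higher, 3 of 7 beside 14.0% of 10568 genes. Cdkn2d had 44.1 against 23.4 CPM (0.92, 0.53 to 1.32). Cdkn1c in doubly marked cells thus lay between its levels in cycling and Myog cells. Of its UMIs there, 8 of the 102 cells held 50%. The median of Cdkn1c in a cell was 98.3 CPM, between 17.2 CPM in cycling and 1178 CPM in Myog cells. Cdkn1a, at 565 CPM, was above both groups (324 and 502 CPM). Cdkn1b, at 29.8 CPM, was below both (42.7 and 39.6 CPM). Of the INK4 genes, Cdkn2a overlapped its level in cycling cells, at 68.1 (62.0 to 74.7) against 63.3 CPM (60.5 to 66.2). Cdkn2c, at 42.0 (37.2 to 47.2) against 58.4 CPM (55.7 to 61.2), Cdkn2d, at 44.1 (39.2 to 49.4) against 52.0 CPM (49.5 to 54.7), and Cdkn2b, at 7.95 (5.96 to 10.4) against 11.9 CPM (10.7 to 13.2), were below it.

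This group was the deepest but for late myocytes, and a simulated doublet score placed 11 of its 102 cells (10.8%) among the highest, against 54 of 738 cycling cells (7.32%) and 1 of 97 Myog cells. Whether barcodes that hold a cell of each kind took part was not tested. Leaving out its 2 shared barcodes moved Cdkn1c to 907 CPM.

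Myog cells and cycling cells, compared directly, differed in Cdkn1c by a log2 ratio of 5.13 (5.06 to 5.19) or 34.9-fold. Cdkn2c (-1.73, -2.16 to -1.33), Cdkn2a (-1.67, -2.06 to -1.29) and Cdkn2d (-1.16, -1.53 to -0.81) were lower in Myog cells. These were 4 of 7 past 2-fold beside 15.0% of 12629 genes. Cdkn1b (-0.11) and Cdkn2b (0.04) did not differ beyond their intervals, and Cdkn1a, at 0.63 (0.55 to 0.71), did so under 2-fold.

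Co-detection in single cells addressed the same states by each partner gene. The cells were those of the Pax7, cycling, Myog and cycling, Myog and late groups, with unassigned cells left out. Since Myog and Mki67 UMIs helped to set these groups, co-detection is not independent of them. Among the 1487 thinned myogenic cells of MOV, 275 held Myog and 472 held Mki67. Cdkn1c was found in 54.5% (48.5 to 60.5) of cells with Myog and in 20.05% (17.8 to 22.4) of the rest, and Cdkn1a in 76.0% (70.5 to 80.9) and 61.1% (58.2 to 63.8). For the other 5 inhibitors the intervals with and without Myog overlapped.

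With Mki67, 4 members were more often detected. Cdkn2c was in 32.4% (28.2 to 36.8) of cells with Mki67 and in 13.4% (11.4 to 15.7) without, Cdkn2d in 23.7% (19.96 to 27.8) and 11.4% (9.54 to 13.5), Cdkn2a in 23.3% (19.6 to 27.4) and 15.7% (13.5 to 18.0), and Cdkn1a in 73.9% (69.7 to 77.8) and 59.1% (56.0 to 62.2). Cdkn1c was in 23.9% and 27.6%, with overlapping intervals. Of the cells with Cdkn2c 52.9%, and of those with Cdkn2d 49.1%, held Mki67, against 28.8% of those with Cdkn1c. Without thinning, all 7 were more often detected with either partner, and cells at full depth differ in depth as well as in state.

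Splitting by both partners set Cdkn1c apart from Cdkn2c and Cdkn2d. Cdkn1c was in 19.4% of the 794 cells with neither, 57.0% of the 221 with Myog alone, 21.3% of the 418 with Mki67 alone and 44.4% (30.9 to 58.6) of the 54 with both. Cdkn2c was in 13.1%, 14.5%, 32.8% and 29.6%, and Cdkn2d in 11.2%, 12.2%, 23.7% and 24.1%. Without Myog, the intervals with and without Mki67 did not overlap for either gene. With Myog they did, at 29.6% (18.0 to 43.6) against 14.5% (10.1 to 19.8) for Cdkn2c and 24.1% (13.5 to 37.6) against 12.2% (8.21 to 17.3) for Cdkn2d. Cdkn2a was in 16.6%, 12.2%, 23.7% and 20.4%, Cdkn1b in 20.7%, 17.6%, 21.8% and 16.7%, and Cdkn2b in 4.66%, 6.33%, 3.11% and 1.85%, so that neither the CIP/KIP nor the INK4 genes moved as 1 branch. Cdkn1a was in 54.9%, 74.2%, 72.7% and 83.3%, above the cells with neither in all 3 other classes. In sham, 2 thinned myogenic cells held Myog and 5 held Mki67, too few to compare.

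**Figure D5:**
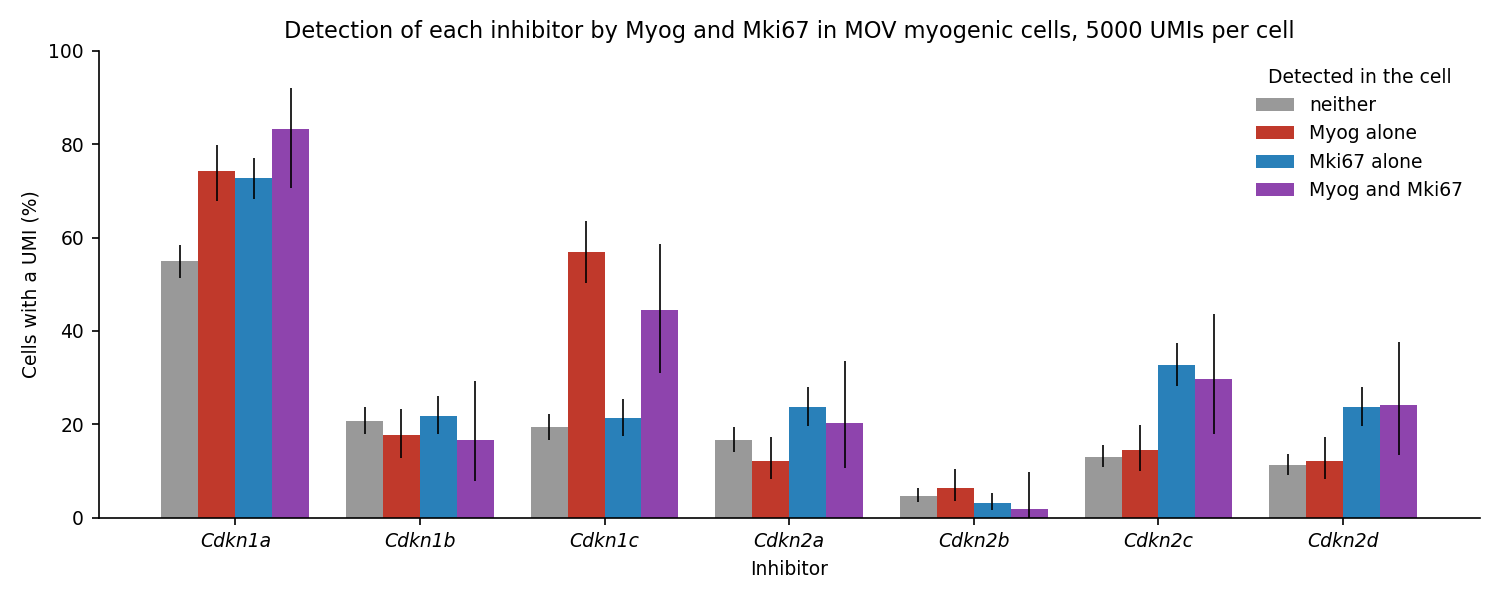
Percent of thinned MOV myogenic cells with each inhibitor, in cells with neither Myog nor Mki67 (794), Myog alone (221), Mki67 alone (418) and both (54), with exact 95% intervals. Cdkn1c is high where Myog is (57.0% and 44.4%), Cdkn2c and Cdkn2d have their highest shares in the classes with Mki67, though with overlapping intervals among cells with Myog, and Cdkn1a is high in all but the first class.

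Pairs of inhibitors were also counted in these 1487 cells. Cdkn2c was in 28.5% (22.7 to 34.8) of cells with Cdkn2d and in 17.8% (15.7 to 20.02) of the rest. Cdkn2a was in 30.8% (19.9 to 43.4) of cells with Cdkn2b, its neighbour on chromosome 4, and in 17.5% (15.6 to 19.6) of the rest. Cdkn2b was in 1.38% (0.378 to 3.51) of cells with Cdkn2c and in 5.09% (3.92 to 6.49) without. Across the branches, Cdkn1a was in 72.1% (66.4 to 77.4) of cells with Cdkn2a and in 62.0% (59.2 to 64.7) of the rest, and in 74.7% (69.3 to 79.6) of cells with Cdkn2c and in 61.2% (58.4 to 64.0) of the rest. Cdkn1c was found with no other inhibitor more often than without it by intervals that did not overlap, its shares with and without Cdkn2c being 27.0% and 26.3%.

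Pax7 cells were the myogenic group present in both libraries, and their comparison asks how cells with a Pax7 UMI differed between MOV and sham. Cdkn1c was 7.11-fold higher in MOV, with 176 CPM (1730 UMIs, 526 cells) against 24.7 CPM (15 UMIs, 67 cells), a log2 ratio of 2.83 (2.10 to 3.67). Cdkn1b had 59.8 against 28.0 CPM (17 UMIs), a log2 ratio of 1.09 (0.40 to 1.88). Cdkn2a had 33.4 against 8.23 CPM, the latter from 5 UMIs in 2 cells (2.02, 0.78 to 3.65). Cdkn2b had 128 UMIs against 0 of 607187. This is 2.63-fold higher with sham set at 3 counts, with no allowance for error in the MOV count. These 4 of 7 stood beside 16.8% of 10756 genes, of which 10.2% were higher, and the median of all genes was itself 0.16.

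Cdkn1a was at 250 CPM in MOV and 270 CPM in sham (-0.11, -0.34 to 0.13), and Cdkn2c at 21.2 and 21.4 CPM (-0.01, -0.82 to 0.92), so neither differed beyond its interval. Cdkn2d had 16.5 and 11.5 CPM (0.52, -0.55 to 1.86). Without the shared barcodes, Cdkn1c was at 3.15 and Cdkn1b at 1.25. Cdkn2a then had no UMI in the remaining 65 sham cells and, with sham set at 3 counts, was 6.19-fold higher in MOV. Dropping the highest cell of each library left Cdkn1c at 2.84 (1.99 to 3.84), Cdkn2a at 3.18 and Cdkn1b at 1.24. Cdkn2b then had 120 UMIs against 0, with a lower bound of 0.97, under 2-fold. Relative to the median of all genes, Cdkn1b was at 0.94 and under 2-fold.

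Detection gave a less sharp picture than the summed counts. After thinning, Cdkn1c was in 21.2% of MOV Pax7 cells (17.7 to 24.95) and in 10.0% of sham Pax7 cells (3.76 to 20.5), and these intervals overlapped, as did those of Cdkn1b (24.7% and 13.3%) and Cdkn2a (10.7% and 3.33%). Cdkn2b was in 3.88% of MOV cells and in 0 of 60 sham cells, which allows up to 5.96%. Each condition was a single library and sham was shallower, with a median of 7808 UMIs in Pax7 cells, so surgery and library cannot be told apart. Pax7 cells needed only 1 Pax7 UMI at full depth. After thinning, Pax7 was found in 54.2% of MOV (49.8 to 58.5) and 81.7% of sham Pax7 cells (69.6 to 90.5). The MOV group thus held a larger share of cells low in Pax7, and the part of this was not tested. Markers of other lineages stood at 12.1 CPM in MOV Pax7 cells, with all 9 detected, and at 1.65 CPM in sham, with 1 of 9 and no UMI of Pdgfra or Ptprc, and the part of this shift was not tested. Among MOV Pax7 cells, the 99 with a Myog UMI had 131 CPM of Cdkn1c and the 427 without 188 CPM (-0.52, -0.71 to -0.33), but the cell of 404 UMIs is among the 427. Without it they had 137 CPM, a log2 ratio of -0.06 (-0.25 to 0.13), and the thinned shares were 20.4% and 21.3%. None of the 7 was past 2-fold between the 99 and the 427, beside 2.30% of 10617 genes. With the cells that hold Myog left out in both libraries, Cdkn1c stood at 3.31 (2.46 to 4.31), 4 of 7 beside 17.6% of 10308 genes, and without that 1 cell it stood at 2.85 (2.00 to 3.86).

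Fibre droplets, defined by adult myosin transcripts, made up the largest sham group and carried little Cdkn1a. Cdkn1a was 18.3-fold lower in them than in sham Pax7 cells, with 41 UMIs in 426 droplets (14.7 CPM, 10.6 to 19.998) against 164 UMIs in 67 cells (270 CPM, 230 to 315), a log2 ratio of -4.20 (-4.73 to -3.69). Cdkn1c had 8.99 against 24.7 CPM (-1.46, -2.44 to -0.43) and Cdkn2d 26.6 against 11.5 CPM (1.21, 0.09 to 2.57). These were 3 of the 5 members tested, beside 66.4% of 7208 genes, and with the median of all genes at -0.58 nothing is read from the count. Without shared barcodes, Cdkn1a remained at -4.20, and Cdkn1c (-1.06, -2.18 to 0.14) and Cdkn2d (1.05, -0.08 to 2.43) were no longer past the limit. Over 12 alternatives Cdkn1a ran from -4.71 to -2.13 and was past 2-fold in each, so its direction held but its size did not. Cdkn2a had no UMI in 2781383, and Cdkn1b and Cdkn2c had 17.3 and 20.1 CPM.

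The 41 MOV fibre droplets were of different make. As a whole they had 885 CPM of Cdkn1a and 377 CPM of Cdkn1c, log2 ratios to sham fibre droplets of 5.91 (5.45 to 6.40) and 5.39 (4.79 to 6.05), 2 of 5 tested beside 44.0% of 6681 genes. Markers of other lineages summed to 102.9 CPM in MOV and 49.98 CPM in sham fibre droplets, and their part was not tested. But 7 droplets with embryonic or perinatal myosin, of median 47860 UMIs, held 506 of the 516 Cdkn1a UMIs and 212 of the 220 Cdkn1c UMIs. The other 34, of median 1418 UMIs, held 10 and 8, or 45.8 CPM (22.0 to 84.3) and 36.7 CPM (15.8 to 72.2), and the 24 of these with no shared barcode 9 and 8. Myog followed the same line, with 806 UMIs in the 7 and 7 UMIs in the 34. At that depth a single UMI moves a droplet far, and the level of the 34 is known only within its interval.

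The genes through which the inhibitors act were taken as 5 lists, of D cyclins and their kinases, of E, A and B cyclins and kinases, of pocket proteins and E2F factors, of factors for the turnover of inhibitors, and of p53 and targets. In Myog cells against Pax7 cells, 1 of 5 of the D cyclin list was higher (Ccnd3, 1.14), 1 of 6 of the later cyclins (Cdk2, 1.42), 3 of 10 of the pocket proteins and E2F (E2f8 4.78, E2f2 1.81 and the retinoblastoma gene Rb1 1.71, with E2f5 lower at -1.10), none of 8 of the turnover list, where Dtl was lower (-1.67), and none of 11 of the p53 list, whose median log2 ratio was 0.33. These counts stand beside 13.5% of all genes past 2-fold, 4.83% higher and 8.66% lower, and 1 of 5 or 1 of 6 is not read as a result.

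In cycling cells, 7 of 7 later cyclins and kinases were higher, as the markers Ccna2 (5.74) and Cdk1 (5.27) fix in part, with Ccnb1 at 5.25 and Ccne2 at 4.18. The pocket protein and E2F list had 5 of 11 higher, led by E2f7 (5.97), E2f8 (4.33) and Rbl1 (2.42), and the turnover list 3 of 8, among them Skp2 (1.80) and Cks1b (2.23), which take p27 to degradation, and Dtl (2.91), which does so for p21. None of 5 of the D cyclin list and 1 of 11 of the p53 list (Ccng1, 1.02) was past 2-fold, and all of these counts stand beside 14.7% of all genes, 8.93% higher and 5.77% lower. Late myocytes against Myog cells had 2 of 5 D cyclin genes lower (Ccnd2 -2.54, Ccnd1 -1.04), 5 of 7 later cyclins higher, 3 of 10 of the E2F list and 2 of 8 of the turnover list higher (Dtl 2.74, Cks1b 1.20), and none of 10 of the p53 list past 2-fold, beside 14.3% of all genes. Since Myog cells were limited to fewer than 5 UMIs of the cycling genes and late myocytes were not, 27 of the 46 holding at least 5, the grouping sets the higher cyclins of this comparison in part, and nothing is read from its counts of cyclin, E2F and turnover genes.

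Pax7 cells of MOV against sham had 3 of 5 of the D cyclin list higher (Ccnd3 1.47, Cdk4 1.46 and Cdk6 1.36), of which Cdk4 and Cdk6 are the kinases that the INK4 proteins bind. The later cyclins had 3 of 7 higher, the E2F list 1 of 9 higher and 1 lower, the turnover list 1 of 8 higher (Cks1b, 1.32) and the p53 list 3 of 11 higher, Trp53inp1 (2.60), Phlda3 (1.39) and Bax (1.26). Each of these counts stands beside the 16.8% of all genes past 2-fold in that comparison.

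The genes most like each inhibitor were found over 14 points, each a group of a library with at least 20 cells, by Pearson's r of log2(CPM + 1) among 11309 genes with at least 200 UMIs. The points share libraries and depth, and r is a description. For Cdkn1c these were Tmem109 (0.906), Myzap (0.904) and Ccdc141 (0.898), for Cdkn1a Sft2d2 (0.952), Map3k14 (0.941) and Mttp (0.933), and for Cdkn1b Fam126b (0.938), Srebf1 (0.917) and Fbxl20 (0.908). Among the INK4 genes, Cdkn2a had Rbbp7 (0.958), Npm1 (0.943) and Hnrnpd (0.942), Cdkn2b Amdhd2 (0.909), Smap2 (0.906) and Sec22a (0.906), Cdkn2c Fbxo5 (0.887), Hist1h2bj (0.882) and Hirip3 (0.882), and Cdkn2d Ccdc167, H1f0 (both 0.873) and Hist1h2bj (0.860).

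On GRCm38, Cdkn1a (ENSMUSG00000023067) lies on chromosome 17 from 29090976 to 29100727, Cdkn1b (ENSMUSG00000003031) on chromosome 6 from 134920401 to 134925513, and Cdkn1c (ENSMUSG00000037664) on chromosome 7 from 143458339 to 143461050. Cdkn2a (ENSMUSG00000044303, 89274471 to 89294653), Cdkn2b (ENSMUSG00000073802, 89306299 to 89311039) and Cdkn2c (ENSMUSG00000028551, 109660876 to 109667189) lie on chromosome 4, and Cdkn2d (ENSMUSG00000096472) on chromosome 9 from 21288410 to 21291407. The neighbours Cdkn2a and Cdkn2b differed across the myogenic groups of MOV, where Cdkn2a ran from 19.97 to 68.1 CPM and Cdkn2b from 6.89 to 13.0 CPM.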

How the data were processed

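The deposited values are whole-number UMI counts per gene and barcode, not normalized, that the authors obtained from 10x 3′ libraries by alignment to mm10 in Cell Ranger 6.0.0, 1 filtered matrix for sham and 1 for MOV. Per the submitters' processing notes, R 4.0.2 and Seurat 4.0.2 were used for later steps. Here, barcodes with under 10% mitochondrial UMIs were grouped by marker UMIs in a fixed order (fibre droplets, other lineages, late myocytes, Myog and cycling, Myog, cycling, Pax7). Counts were summed per group and library and divided by the group's total (CPM, per 1000000 UMIs). Groups were compared in pairs by the ratio of CPM with an exact conditional 95% interval, over all genes with at least 20 UMIs in the pair. Shares of cells were taken at 5000 UMIs per cell, with exact Clopper-Pearson intervals, and levels have exact Poisson intervals. The mitochondrial limit is that of the study. Doublets, which the study removed after this stage, were kept, and a simulated doublet score served as an alternative.

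The 7 members, the marker thresholds and the pathway lists were chosen with earlier results of these data known. Named genes were the 7 members, the genes of 5 fixed lists past 2-fold (at most the 4 largest per list and comparison), and the 3 genes most like each member. The ratio was run on simulated data for Myog against Pax7 cells over 11100 genes, with counting error as the only source of spread. It recovered 200 of 200 4-fold changes and called 58 of 10900 unchanged genes (0.532%), and 95.7% of intervals held the true value. Since the intervals assume that same error, this coverage says nothing about spread between cells. That spread was large in the real counts, where the highest MOV Pax7 cell held 23.4% of the Cdkn1c UMIs of its group. The changed genes were drawn from those with more UMIs than the call requires, so recovery near that minimum was not tested. Tools were Python 3.11.15, numpy 2.4.6, scipy 1.17.1, pandas 2.3.3, scikit-learn 1.9.0, matplotlib 3.10.9 and R 4.3.3, with edgeR 4.0.16 and DESeq2 1.42.0 for scaling factors only.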

Additional observations from a re-analysis of the deposited data

Results flagged for a closer look

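Some members moved in opposite directions between MOV and sham in different groups, each ratio with an interval on its own side of 0, and the difference between groups was not tested. On the log2 scale, Cdkn1c was higher in MOV in Pax7 cells (2.83) and fibre droplets (5.39) and lower in MOV in Pdgfra cells (-2.71) and other lineage cells (-2.19). Cdkn1b was higher in Pax7 cells (1.09) and lower in other lineage cells (-1.36). Cdkn1a was lower in Pdgfra cells (-1.85) and other lineage cells (-1.57) and higher in fibre droplets (5.91). The sham side of these comparisons held 25 Pdgfra cells and 57 other lineage cells. Of the 25, 2 held 50% of the Cdkn1c UMIs. Other lineage cells pool several cell types, so a change in their mix cannot be told apart from a change within a type. Past 2-fold between MOV and sham were 17.0% of 11676 genes in Pdgfra cells and 22.1% of 12385 genes in other lineage cells.

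Fibre droplets against Pax7 cells also differed in direction between the libraries. Cdkn1a had a log2 ratio of -4.20 in sham and 1.82 in MOV, and Cdkn1c of -1.46 in sham and 1.10 in MOV. In MOV, 7 of the 41 droplets, those with embryonic or perinatal myosin, held 506 of the 516 Cdkn1a UMIs and 212 of the 220 Cdkn1c UMIs.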

How the results depend on the processing

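Of 564 member values under 18 alternatives, 499 stayed the same, 65 moved and 0 called values changed sign. For ratios, the same means within the counting interval of the reported value. For co-detection it means only that the call was unchanged, however far the shares moved. The count of members past 2-fold ranged from 1 to 2 for Myog against Pax7 cells (1 without a mitochondrial limit), from 2 to 4 for cycling against Pax7 cells, from 1 to 3 for late myocytes against Myog cells (1 with marker thresholds of 10, and 2 for Pax7), from 1 to 4 for sham fibre droplets against Pax7 cells (1 without shared barcodes and 1 with the mean of CPM per cell) and from 3 to 4 for Pax7 cells of MOV against sham. The count detected more often with Myog was 2 and ranged from 2 to 7, and that with Mki67 was 4 and ranged from 3 to 7, the 7 in both cases without thinning. Cdkn2d in Myog against Pax7 cells, not past 2-fold, ran from -0.71 to 0.94 on the log2 scale. Cdkn1c in cycling against Pax7 cells was past 2-fold under 11 of 14 alternatives. Leaving out the MOV Pax7 cell highest in Cdkn1c, and leaving out Pax7 cells with Myog, were chosen after seeing the data. No paired analysis was possible because each condition has 1 library. A mitochondrial limit of 5% for the comparisons that need sham Pax7 cells, and groups set on thinned counts for late myocytes, left a group under 20 cells and were not run. Sham depth, with 0 to 17 UMIs of 6 of the members in its Pax7 cells, limits the comparison between libraries, as does the single library per condition.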
